A study of Arabidopsis thaliana with 72 samples.

Results

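Flavonoids are made from phenylpropanoid precursors by a short chain of enzymes, and the 10 genes described here cover that chain and its MYB regulators in leaves of Arabidopsis thaliana. They were chosen by locus identifier: the enzyme genes CHS (AT5G13930), CHI (AT3G55120), F3H (AT3G51240), F3'H (AT5G07990), FLS1 (AT5G08640), DFR (AT5G42800) and LDOX (AT4G22880), and the regulator genes PAP1 (AT1G56650), MYB12 (AT2G47460) and MYB111 (AT5G49330). All 10 were in the deposited table, which held 18603 genes. The leaves came from 2 natural demes (local populations) of Catalonia, A1(c+), labelled as tolerant, and T6(c-), labelled as sensitive. Plants grew in hydroponic culture in diluted Hoagland solution at pH 5.9 and, when 15 days old, were kept at pH 5.9 (the control), moved to pH 8.3, or moved to pH 8.3 with 10 mM NaHCO3 (bic). All 3 solutions were buffered with MES and BTP, in proportions set by the final pH. Leaves were taken after 3 h or 48 h, which gave 12 groups of 2 biological replicates. Each replicate combined 3 technical replicates, so that the table's 24 columns stood for 72 libraries. Each deme was grown from seeds of a selected line, and the plants of a line and treatment were pooled before the replicates were made, so that the spread between replicates may hold less than the variation between plants.

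The chain begins with chalcone synthase (CHS), chalcone isomerase (CHI) and flavanone 3-hydroxylase (F3H), the early steps that all flavonols and anthocyanins share. Flavonoid 3'-hydroxylase (F3'H) adds a hydroxyl group to the ring that separates quercetin and cyanidin from kaempferol and pelargonidin. At the branch point flavonol synthase (FLS1) leads to flavonols, colourless compounds that absorb ultraviolet light, while dihydroflavonol reductase (DFR) and leucoanthocyanidin dioxygenase (LDOX) lead to anthocyanins, the red and purple pigments of stressed leaves. MYB12 and MYB111 are known to activate the early genes and FLS1. PAP1 (MYB75) acts in a complex with bHLH proteins such as TT8 and with TTG1, and is known to activate DFR, LDOX and the genes that decorate and transport anthocyanins.

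The 250 bases upstream of the annotated start are shown for 2 early genes, CHS and F3H, and for the late genes DFR and LDOX, because the early and the late genes behaved differently in these leaves. The sequences are from RefSeq, assembly TAIR10.1, written on the strand of the gene, and all 10 genes had an entry. CHS lies at chr5:4488226-4488475 on the plus strand, F3H at chr3:19024942-19025191 on the plus strand, DFR at chr5:17166033-17166282 on the minus strand and LDOX at chr4:12006210-12006459 on the minus strand. Capitals mark the letters of the 4 motifs searched on both strands. These were the G-box CACGTG with its inner part ACGTG, an MYB element written ACCTAAC, and another form of that element written ACCAAAC.
CHS: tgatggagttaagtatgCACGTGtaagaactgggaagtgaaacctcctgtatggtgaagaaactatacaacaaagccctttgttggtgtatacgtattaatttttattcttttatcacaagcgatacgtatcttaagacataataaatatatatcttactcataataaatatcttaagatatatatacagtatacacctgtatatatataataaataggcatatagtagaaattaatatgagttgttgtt
F3H: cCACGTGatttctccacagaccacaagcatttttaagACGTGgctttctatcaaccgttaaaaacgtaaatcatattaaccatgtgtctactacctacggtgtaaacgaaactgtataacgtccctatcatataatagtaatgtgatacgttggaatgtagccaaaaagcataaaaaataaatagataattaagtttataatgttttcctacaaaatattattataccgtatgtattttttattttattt
DFR: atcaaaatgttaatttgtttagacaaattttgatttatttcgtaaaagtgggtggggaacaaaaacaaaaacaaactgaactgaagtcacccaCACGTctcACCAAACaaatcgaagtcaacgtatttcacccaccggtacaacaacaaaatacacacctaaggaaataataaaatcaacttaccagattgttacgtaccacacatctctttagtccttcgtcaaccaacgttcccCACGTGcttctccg
LDOX: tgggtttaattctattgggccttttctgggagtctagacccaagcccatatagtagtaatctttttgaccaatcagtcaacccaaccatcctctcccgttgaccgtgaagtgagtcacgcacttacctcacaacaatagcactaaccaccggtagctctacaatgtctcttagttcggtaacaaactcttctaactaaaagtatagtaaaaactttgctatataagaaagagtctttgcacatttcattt
The G-box, bound by bZIP and bHLH proteins, was present upstream of 4 of the 10 genes (CHS, F3H, DFR and MYB12), against 6.49% of all 27443 promoter windows of this length. Its inner part, which every G-box also holds, was present in the same count of 4 of 10, against 22.9% of all windows. The motif ACCAAAC was present upstream of 3 of 10 (FLS1, DFR and PAP1), against 8.29%, and ACCTAAC upstream of none, against 2.46%. LDOX, whose levels ran side by side with those of DFR, held none of these motifs. These matches describe the sequence and not the binding of a factor.

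The table gave log2 CPM, the reads of a gene scaled to the size of its library, computed by the authors with 0.5 reads added to each count. Replicates held about 63510000 to 120600000 reads, with a median of 99680000, as read from the steps between low values. The lowest value of DFR still rested on 13 reads, that of MYB12 on 11 and that of MYB111 on 14. Genes of leaf mesophyll were high in every replicate: the summed level of 4 of 4 markers lay between 14051 and 55254 CPM. Of 4 root markers only PYK10 was in the table (3.22 to 507 CPM), and of 6 epidermis and trichome markers 5 were (222 to 596 CPM summed).

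The labelled deme of 3 replicates was in doubt. Over the other 21 replicates, 46 genes separated the demes by more than 4 on the log2 scale with no overlap. Reading these genes on a scale from 0 (the mean of T6(c-)) to 1 (the mean of A1(c+)), the replicate labelled A1(c+) bic 3 h replicate 2 had a median of 0.0, with 36 of the 46 genes on the side of T6(c-). The replicate labelled T6(c-) pH 8.3 48 h replicate 1 had a median of 0.02, but 10 of its 46 genes lay on the side of A1(c+). The replicate labelled A1(c+) pH 8.3 48 h replicate 1 had a median of 0.8, with 19 genes between 0.25 and 0.75. None of these 3 replicates looked like a clean member of its deme, so the calls of the 10 genes below are given over all 24 replicates and again without these 3. The other 21 replicates chose the 46 genes, so their clean separation was built in. Each was also held out of that choice. With T6(c-) bic 48 h replicate 1 held out, 75 genes qualified, and 5 lay on the side of A1(c+). The other T6(c-) replicates not in doubt had 0. T6(c-) bic 48 h replicate 1 held the highest level of every enzyme gene and was kept in both fits. Group means, orders and spans are over all 24 replicates unless stated. In the second fit 3 groups, A1(c+) bic 3 h, A1(c+) pH 8.3 48 h and T6(c-) pH 8.3 48 h, had a lone replicate, which was assumed to vary like the other groups.

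**Figure D1:**
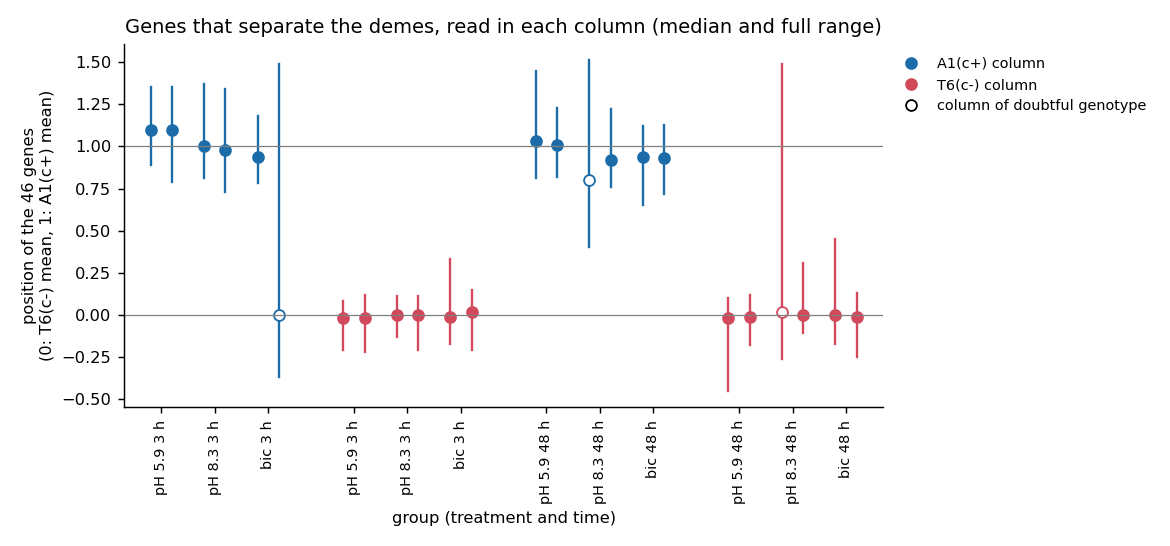
Position of each replicate on the scale set by the 46 genes that separated the demes in 21 replicates (0, mean of T6(c-); 1, mean of A1(c+)), with points for the median and lines for the full range over these genes. The replicates labelled A1(c+) bic 3 h replicate 2 and A1(c+) pH 8.3 48 h replicate 1 had medians of 0.0 and 0.8, and that labelled T6(c-) pH 8.3 48 h replicate 1 had a median of 0.02 with genes spread up to 1.49.

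The pairs of T6(c-) at pH 5.9 stood apart in another way. Their replicates differed little more than counting allows, with a chi-square per degree of freedom of 2.41 (3 h) and 3.44 (48 h), where the remaining 10 pairs had values from 45.9 to 505. As an alternative, each of these pairs was averaged and counted as 1 sample. A gene was called when its adjusted p was under 0.05 over all 18603 genes of the comparison and its log2 fold change was beyond 1, in limma with 1 mean per group. The 2 against 2 replicates of a comparison cannot by themselves give an exact permutation p below 0.333, so every call rests on the spread shared over groups. The median log2 fold change of all genes lay between -0.31 and 0.3 over the 28 comparisons, and median-ratio scaling brought it to between -0.03 and 0.03. Because leaf samples are bulk tissue, fewer cells of a type and less RNA per cell cannot be told apart.

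All 7 enzyme genes reached their highest group mean in T6(c-) after 48 h of bic and their lowest in A1(c+) after 3 h at pH 8.3. Group means here are geometric. CHS went from 70.5 to 653 CPM, CHI from 7.16 to 72.5, F3H from 46.9 to 704 and FLS1 from 10.3 to 88.0. The late genes covered a far wider span, with DFR going from 0.187 to 124 CPM and LDOX from 0.616 to 108, and F3'H going from 0.566 to 54.6. Over single replicates the highest level was 14.5 times the lowest for CHS and 14.7 times for CHI, but 159 times for F3'H, 249 times for LDOX and 1088 times for DFR. MYB12 had its ends in the same groups, from 0.2 to 3.78 CPM. PAP1 was highest in T6(c-) bic 48 h (246 CPM) and lowest in T6(c-) pH 8.3 48 h (11.2 CPM), where the doubtful replicate held 5.77 CPM and the trusted one 21.8 CPM. Over the 21 trusted replicates A1(c+) pH 8.3 48 h was lowest, at 8.75 CPM. MYB111 was ordered otherwise, from 0.382 CPM in A1(c+) bic 48 h to 4.96 CPM in A1(c+) pH 8.3 48 h. That highest mean rested on a doubtful replicate at 11.2 CPM beside a trusted one at 2.18 CPM, and without the doubtful replicates A1(c+) pH 5.9 48 h was highest, at 2.95 CPM.

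Most neighbouring groups in these orders could not be separated. Of the 11 steps between neighbouring groups, the replicates did not overlap in 5 for CHI, F3H and F3'H, in 4 for DFR, in 3 for CHS, FLS1, LDOX and PAP1, and in 2 for MYB12 and MYB111. The top step was clear for DFR and LDOX: the lower replicate of T6(c-) bic 48 h held 104 and 92.2 CPM, and the highest replicate of any other group held 34.2 and 33.6 CPM. F3H was split by time in all replicates, with 45.6 to 141 CPM at 3 h and 206 to 826 CPM at 48 h.

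**Figure D2:**
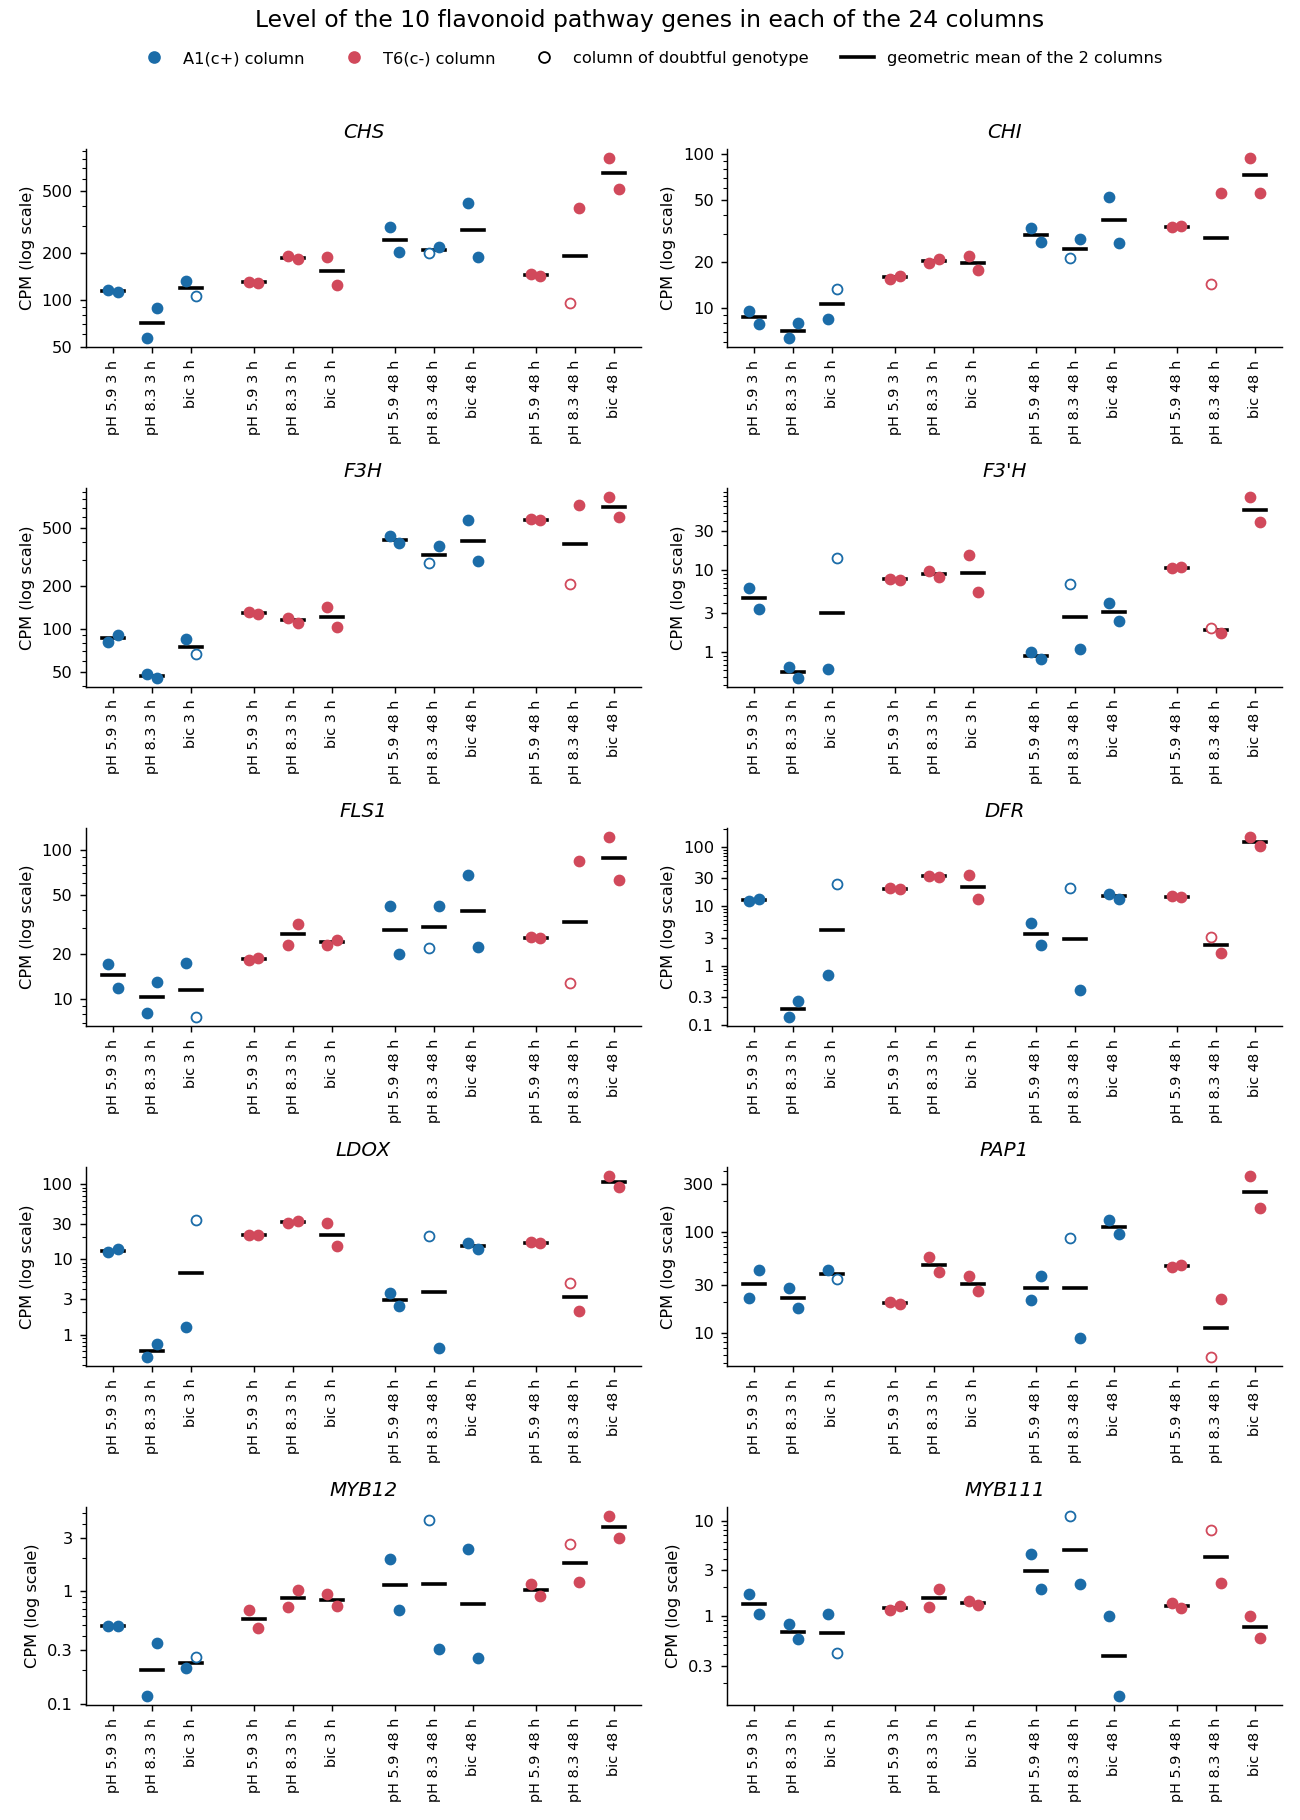
Level of the 10 genes in every replicate (CPM, log axis) in the 12 groups, with open symbols for the 3 replicates whose deme is in doubt and bars for group means. The enzyme genes peaked in T6(c-) bic 48 h, and DFR and LDOX were lowest in A1(c+) pH 8.3 3 h, at 0.137 to 0.746 CPM.

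After 3 h at pH 8.3, the late genes were nearly silent in A1(c+) and stayed on in T6(c-). The comparison with pH 5.9 asks what alkaline pH does without added bicarbonate. The proportions of the buffers changed with the pH, so the 2 cannot be told apart. In A1(c+), DFR held 12.5 and 13.5 CPM at pH 5.9 and 0.137 and 0.255 CPM at pH 8.3. LDOX held 12.5 and 13.8 CPM at pH 5.9 and 0.511 and 0.746 CPM at pH 8.3. F3'H held 6.07 and 3.39 CPM at pH 5.9 and 0.663 and 0.486 CPM at pH 8.3. In each of the 3 genes both replicates at pH 8.3 lay below both at pH 5.9. Over all 24 replicates DFR fell (log2 fold change -6.12 ± 1.48 SE, 69.7-fold lower, limma adjusted p = 0.026), while LDOX (-4.41 ± 1.32, adjusted p = 0.0535) and F3'H (-3 ± 1.06, adjusted p = 0.09) did not pass. Without the 3 doubtful replicates, none of which belongs to these groups, the shared spread was smaller and all 3 fell, with limma adjusted p of 2.24e-05 for DFR, 1.6e-05 for LDOX and 0.00122 for F3'H. This was 1 of 10 genes over 24 replicates and 3 of 10 over 21, against 1.9% and 6.75% of all genes called lower, 0.226% called higher over 24, and 7.43% called in either direction over 21. The call of DFR over 24 replicates was lost when any 1 of its own 4 replicates was left out and when the T6(c-) pH 5.9 pairs were each counted as 1 sample (limma adjusted p = 0.067), and over 21 replicates it held in all 18 such fits. Over 24 replicates the call of DFR was also lost under quantile normalization and with a pseudocount of 1 CPM.

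The early genes showed no drop of this size. In A1(c+), CHS held 116 and 113 CPM at pH 5.9 and 56.8 and 88.0 CPM at pH 8.3, without overlap. The difference did not pass (log2 fold change -0.69, limma adjusted p = 0.392 over 24 and 0.159 over 21 replicates). F3H held 81.4 and 91.1 CPM at pH 5.9 and 48.3 and 45.6 CPM at pH 8.3, without overlap. Its log2 fold change was -0.88, which had a limma adjusted p of 0.0226 over 21 replicates but lay within the fold limit. CHI, FLS1, PAP1 and MYB111 differed by log2 fold changes between -0.29 and -0.96 and were not called. MYB12 held 0.488 CPM in both replicates at pH 5.9 and 0.116 and 0.345 CPM at pH 8.3, without overlap. It was not called either (log2 fold change -1.28, limma adjusted p = 0.477 over 24 and 0.281 over 21 replicates). The median over the 10 genes was -0.92, beside -0.27 over all genes. The summed level of the 5 epidermis and trichome markers was 239 to 249 CPM at pH 5.9 and 322 to 356 CPM at pH 8.3, that of the mesophyll markers 39169 to 42037 and 41073 to 45295 CPM, and that of PYK10 34.5 to 36.1 and 6.01 to 6.43 CPM. Their part in the result was not tested.

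In T6(c-) none of the 10 genes was called after 3 h at pH 8.3, and 0 reached an unadjusted limma p under 0.05 over 24 replicates, 1 over 21. DFR held 20.1 and 19.7 CPM at pH 5.9 and 32.9 and 31.4 CPM at pH 8.3, on the other side of its control from A1(c+). LDOX held 21.4 and 21.2 CPM at pH 5.9 and 30.6 and 32.0 CPM at pH 8.3. PAP1 held 20.2 and 19.4 CPM at pH 5.9 and 55.7 and 40.2 CPM at pH 8.3, the largest difference among the 10 (log2 fold change 1.26, limma adjusted p = 0.633 over 24 and 0.0894 over 21 replicates). In these 3 genes the groups did not overlap. Over all genes 0% were called higher or lower with 24 replicates, and 1.03% higher and 0.677% lower (1.7% in all) with 21.

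Bic for 3 h could be read in A1(c+) from a lone trusted replicate. DFR held 0.701 CPM in it and 23.6 CPM in the replicate labelled A1(c+) bic 3 h replicate 2, where the A1(c+) control held 12.5 and 13.5 CPM. LDOX showed the same split, with 1.28 and 33.6 CPM against 12.5 and 13.8 CPM, and F3'H held 0.614 and 14.2 CPM against 6.07 and 3.39 CPM. The doubtful replicate thus lay above the control in the 3 genes and the trusted one below it. Over 24 replicates none of the 10 genes was called, none reached an unadjusted limma p under 0.05, and 0.0161% of all genes were called lower. Without the doubtful replicates DFR fell (log2 fold change -4.22 ± 0.54, limma adjusted p = 0.00239), as did LDOX (-3.36 ± 0.37, adjusted p = 0.00117) and F3'H (-2.88 ± 0.57, adjusted p = 0.0119), against 4.81% of all genes called lower and 5.31% in either direction. F3'H lost its call there under quantile normalization (log2 fold change -2.11).

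In T6(c-) none of the 10 genes was called after 3 h of bic in either fit, and none reached an unadjusted limma p under 0.05. DFR held 34.2 and 13.4 CPM, on either side of its control at 20.1 and 19.7 CPM, and LDOX held 30.4 and 14.9 CPM, on either side of 21.4 and 21.2 CPM. For DFR and LDOX the 2 bic replicates thus differed from each other more than from the control. Of all genes, 0.715% were called higher and 0.887% lower (1.6% in all) over 21 replicates, and 0% over 24. Bic and pH 8.3 were also compared directly at 3 h. None of the 10 genes was called in A1(c+) over 24 or 21 replicates. Of all genes, 0.0108% were called higher and 0.0108% lower (0.0215% in all) over 24, and 0% over 21. In each fit 3 of the 10 genes reached an unadjusted limma p under 0.05, as did 2499 of all 18603 genes over 24. In T6(c-) none was called and none reached an unadjusted limma p under 0.05, with 0% of all genes called over 24 replicates and 0.00538% higher and 0.312% lower over 21.

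The gap between late and early genes can be followed within each replicate, where depth cancels. The log2 level of DFR minus that of CHS was -3.21 and -3.06 in A1(c+) at pH 5.9 for 3 h, -8.70 and -8.43 at pH 8.3, and -7.57 in the trusted bic replicate. The 6 replicates of T6(c-) at 3 h all lay between -3.21 and -2.47, and the doubtful A1(c+) bic replicate lay at -2.16, above all of them. At 48 h the difference was -5.82 and -6.49 in A1(c+) at pH 5.9 and -3.31 and -3.32 in T6(c-) at pH 5.9. It was -9.12 and -7.88 in the trusted pH 8.3 replicates of A1(c+) and T6(c-), -4.71 and -3.79 in A1(c+) under bic, and -2.47 and -2.32 in T6(c-) under bic. The doubtful pH 8.3 replicates lay at -3.27 (A1(c+)) and -4.99 (T6(c-)). F3H minus CHS, a pair of early genes, stayed within -0.95 to 2.01 over all 24 replicates. Only the change of these differences between replicates is read here, since transcripts differ in length.

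**Figure D3:**
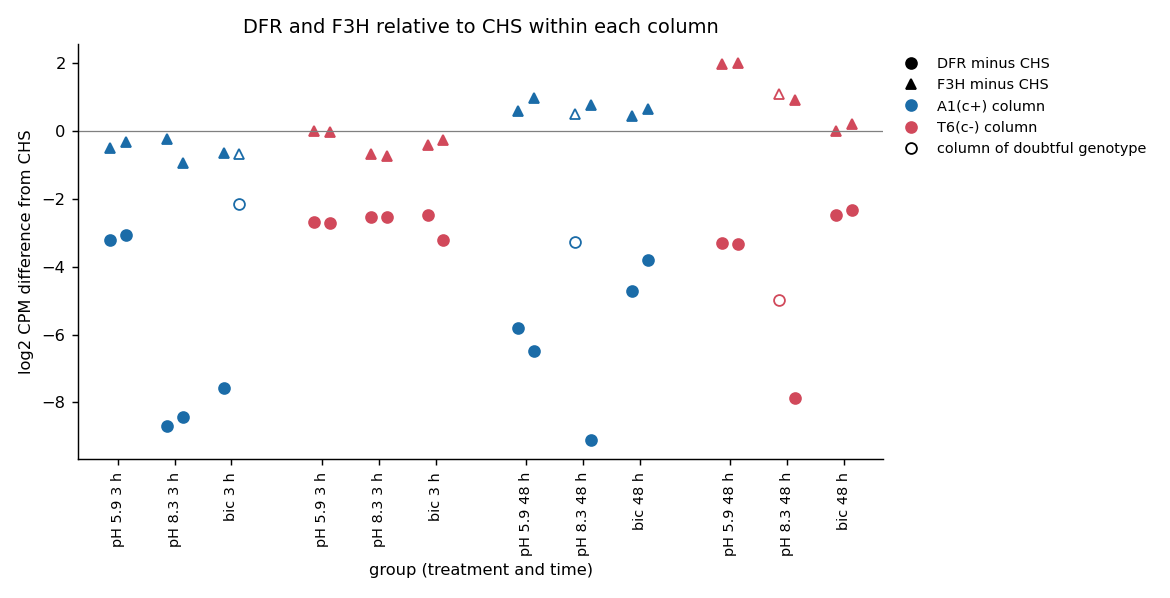
Log2 CPM of DFR (circles) and of F3H (triangles) minus that of CHS in each replicate of the 12 groups, with open symbols for the 3 doubtful replicates. The lowest values of DFR, -9.12 to -7.57, were trusted replicates at pH 8.3 or under bic at 3 h, and T6(c-) bic 48 h was at -2.47 and -2.32.

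After 48 h of bic, most of the pathway was higher in T6(c-) than in its control at pH 5.9. CHS held 147 and 142 CPM at pH 5.9 and 821 and 517 CPM under bic. PAP1 held 45.2 and 47.1 CPM at pH 5.9 and 355 and 172 CPM under bic. In both genes the groups were far apart, and over 24 replicates both rose, CHS by a log2 fold change of 2.17 ± 0.5 (4.51-fold, limma adjusted p = 0.0031) and PAP1 by 2.42 ± 0.8 (5.35-fold, limma adjusted p = 0.0254). These were 2 of 10 genes, against 13.8% of all genes called higher. CHS was called in all 24 fits that left out 1 replicate. PAP1 was called in 21 of them, and not when either T6(c-) pH 5.9 48 h replicate or T6(c-) bic 48 h replicate 1 was left out, nor with the T6(c-) pH 5.9 pairs each counted as 1 sample (limma adjusted p = 0.117).

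The late genes and F3'H were higher under bic in every replicate, but over 24 replicates their errors were wider than that of CHS and none passed. DFR held 14.9 and 14.2 CPM at pH 5.9 and 149 and 104 CPM under bic (log2 fold change 3.1 ± 1.48, limma adjusted p = 0.108). LDOX held 16.9 and 16.5 CPM against 127 and 92.2 CPM (2.69 ± 1.32, adjusted p = 0.115). F3'H held 10.7 and 10.8 CPM against 77.5 and 38.3 CPM (2.34 ± 1.06, adjusted p = 0.0912). None of these groups overlapped. Without the 3 doubtful replicates 7 of the 10 genes rose, against 16.3% of all genes called higher: DFR (limma adjusted p = 0.000118), LDOX (2.17e-05), F3'H (0.00121), CHS, PAP1, FLS1 (log2 fold change 1.76, adjusted p = 0.00975) and CHI (1.1, adjusted p = 0.00723). FLS1 and CHI lost their calls when the T6(c-) pH 5.9 pairs were each counted as 1 sample (limma adjusted p = 0.0607 and 0.0509) or when T6(c-) bic 48 h replicate 1 was left out, and CHI also under quantile normalization (0.74) and median-ratio scaling (0.81), where the median gene no longer stood at 0.3. F3H, MYB12 and MYB111 were not called in either fit, and none of the 10 was called lower, against 6.58% of all genes over 21. The median log2 fold change of the 10 genes was 2.03, beside 0.3 over all genes.

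Other cell type markers moved in the same leaves. The 4 mesophyll markers, which include the photosynthesis genes RBCS1A and RCA, summed to 51627 to 52116 CPM in T6(c-) at pH 5.9 and 14051 to 18541 CPM under bic at 48 h, the lowest of all groups. All 4 fell in limma, where 5.14% of all genes were called lower over 24 replicates and 6.58% over 21. The 5 epidermis and trichome markers summed to 305 CPM at pH 5.9 and 511 to 568 CPM under bic, and PYK10 was at 139 to 143 and 181 to 507 CPM. Their part in the rise of the pathway genes was not tested.

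In A1(c+) the late genes were also higher after 48 h of bic, from a lower control. DFR held 5.17 and 2.27 CPM at pH 5.9 and 16.2 and 13.6 CPM under bic. LDOX held 3.56 and 2.38 CPM against 16.5 and 13.8 CPM, and PAP1 held 21.2 and 36.6 CPM against 129.9 and 95.5 CPM. The groups did not overlap in these 3 genes. None of the 10 was called over 24 replicates, where 0.113% of all genes were called higher and 0.22% lower. There 2 of the 10 genes reached an unadjusted limma p under 0.05, as did 3678 of all 18603 genes. Without the doubtful replicates 4 rose, against 2.1% of all genes (3.2% called in either direction): DFR (log2 fold change 2.11 ± 0.44, limma adjusted p = 0.0131), LDOX (2.37 ± 0.3, adjusted p = 0.00204), PAP1 (2 ± 0.4, adjusted p = 0.0114) and F3'H (1.79 ± 0.47, adjusted p = 0.0277). The call of F3'H was lost under median-ratio scaling (1.61), under quantile normalization (1.39) and with the T6(c-) pH 5.9 pairs averaged (limma adjusted p = 0.0757), and PAP1 lost its call without A1(c+) pH 5.9 48 h replicate 1. CHS was not called, with 292 and 204 CPM at pH 5.9 and 422 and 189 CPM under bic, groups that overlapped. In A1(c+) the mesophyll markers summed to 39108 to 46689.5 CPM at pH 5.9 and 29849 to 34204 CPM under bic, the epidermis and trichome markers to 514 to 585 and 288 to 419 CPM, and PYK10 was at 3.22 to 29.7 and 11.4 to 23.0 CPM. Their part was not tested.

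MYB111 went the other way from the late genes in A1(c+). It held 4.45 and 1.94 CPM at pH 5.9 and 1.01 and 0.144 CPM under bic at 48 h, the last value resting on 14 reads. It fell without the doubtful replicates (log2 fold change -2.95 ± 0.71, limma adjusted p = 0.0211, against 1.11% of all genes called lower) and not over 24 (adjusted p = 0.109). The call was lost without A1(c+) pH 5.9 48 h replicate 1 or A1(c+) bic 48 h replicate 2, and with the T6(c-) pH 5.9 pairs averaged (limma adjusted p = 0.0641).

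After 48 h at pH 8.3 the result turned on the doubtful replicates. In A1(c+), DFR held 5.17 and 2.27 CPM at pH 5.9, 0.396 CPM in the trusted replicate at pH 8.3 and 20.8 CPM in the doubtful one. LDOX held 3.56 and 2.38 CPM at pH 5.9, 0.666 CPM in the trusted replicate and 20.4 CPM in the doubtful one. The doubtful replicate was above both controls and the trusted one below both. The epidermis and trichome markers summed to 514 to 585 CPM at pH 5.9 and 264 to 333 CPM at pH 8.3. The mesophyll markers summed to 39108 to 46689.5 and 48421 to 52427 CPM, and PYK10 was at 3.22 to 29.7 and 4.48 to 138 CPM. The part of these markers was not tested. Over 24 replicates none of the 10 genes was called and none reached an unadjusted limma p under 0.05 (log2 fold change -0.26 for DFR and 0.34 for LDOX), with 0.898% of all genes called higher and 0.129% lower. Without the doubtful replicates DFR fell (-3.12 ± 0.54, limma adjusted p = 0.0119) and LDOX fell (-2.13 ± 0.37, adjusted p = 0.0122), against 1.87% of all genes called lower, 1.73% called higher and 3.6% in all. Both calls were lost with the T6(c-) pH 5.9 pairs averaged (limma adjusted p = 0.0565 for each).

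In T6(c-) both replicates at pH 8.3 for 48 h were low in the late genes. DFR held 14.9 and 14.2 CPM at pH 5.9, and 3.02 CPM in the doubtful replicate and 1.65 CPM in the trusted one at pH 8.3. LDOX held 16.9 and 16.5 CPM against 4.83 and 2.05 CPM, and F3'H held 10.7 and 10.8 CPM against 1.97 and 1.72 CPM. None of these groups overlapped. Over 24 replicates none was called, beside 0.113% of all genes called higher and 0.043% lower (0.156% in all). An unadjusted limma p under 0.05 was reached by 2 of the 10 genes and by 2874 of all 18603 genes. Without the doubtful replicates DFR (log2 fold change -3.14 ± 0.54, limma adjusted p = 0.0127), LDOX (-3.02 ± 0.37, adjusted p = 0.00552) and F3'H (-2.64 ± 0.57, adjusted p = 0.0295) fell, against 0.828% of all genes called lower. The 3 calls were lost with the T6(c-) pH 5.9 pairs averaged (limma adjusted p from 0.155 to 0.248) and when either T6(c-) pH 5.9 48 h replicate was left out. Here CHS, CHI, F3H and FLS1 differed widely between the replicates, with CHS at 96 CPM in the doubtful replicate and 388 CPM in the trusted one. PYK10 was at 139 to 143 CPM at pH 5.9 and 48.9 to 55.4 CPM at pH 8.3. The epidermis and trichome markers summed to 305 and 415 to 596 CPM, and the mesophyll markers to 51627 to 52116 and 43768 to 55254 CPM. The part of these markers was not tested.

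**Figure D4:**
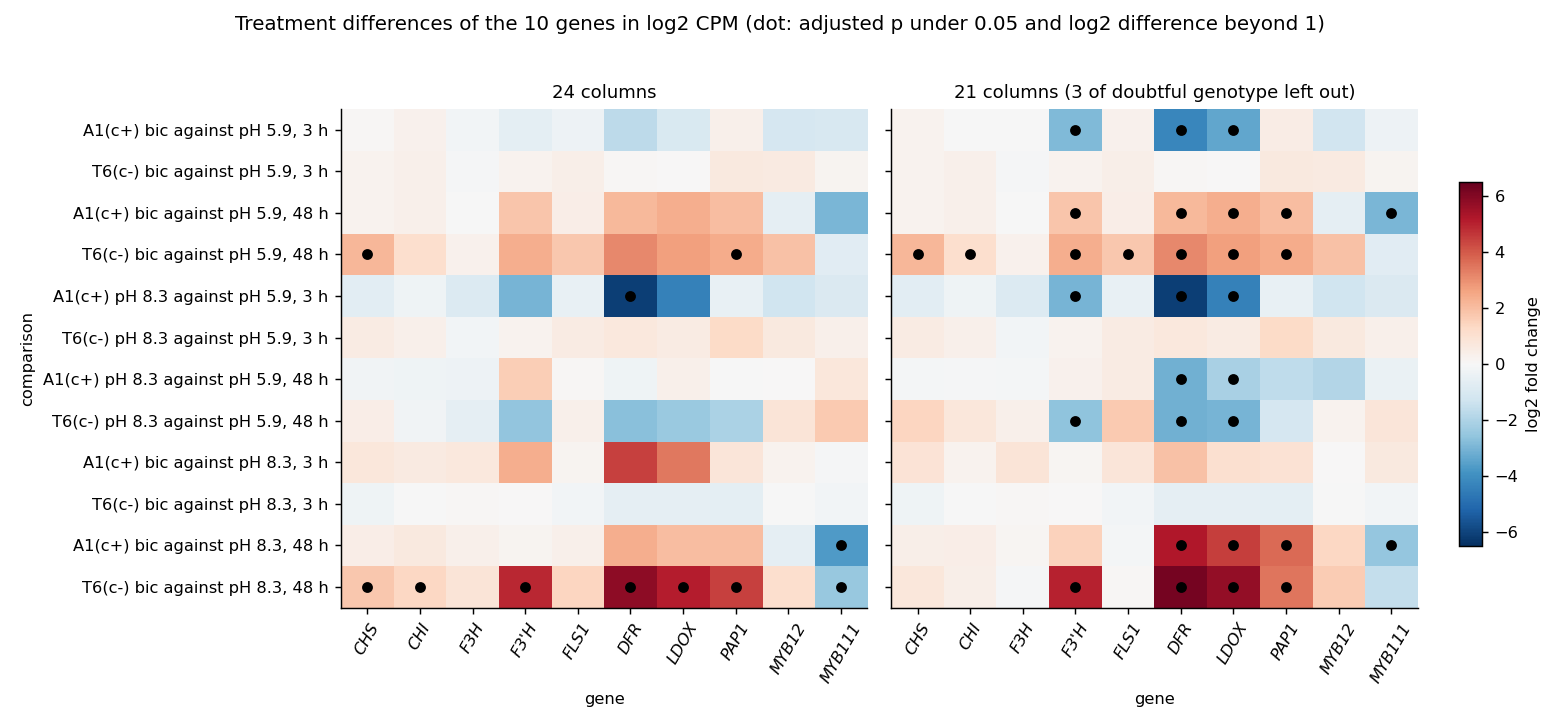
Log2 fold changes of the 10 genes (colour) in the 12 comparisons between treatments, over all 24 replicates and without the 3 doubtful ones, with dots for calls (limma adjusted p under 0.05 and log2 fold change beyond 1). The lowest value was that of DFR in A1(c+) at pH 8.3 against pH 5.9 for 3 h (-6.12), and the highest that of DFR in T6(c-) under bic against pH 8.3 for 48 h (6.24 without the doubtful replicates).

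Bic and pH 8.3 share the same pH and differ by the added NaHCO3, so that their direct comparison sets them apart without the pH 5.9 controls, which both comparisons above use. At 48 h in T6(c-), DFR held 149 and 104 CPM under bic against 3.02 and 1.65 CPM at pH 8.3, and PAP1 held 355 and 172 CPM against 5.77 and 21.8 CPM. In both the groups were far apart. Over 24 replicates 6 of the 10 genes were higher under bic, against 14.2% of all genes: DFR (log2 fold change 5.8 ± 1.48, limma adjusted p = 0.00626), LDOX (5.1 ± 1.32, adjusted p = 0.00664), F3'H (4.88 ± 1.06, adjusted p = 0.0023), PAP1 (4.46 ± 0.8, adjusted p = 0.00067), CHS (1.76, adjusted p = 0.011) and CHI (1.35, adjusted p = 0.0331). MYB111 was lower under bic (-2.45, limma adjusted p = 0.0389), 1 of 10 against 6.28% of all genes. CHI and MYB111 lost these calls with the T6(c-) pH 5.9 pairs averaged (limma adjusted p = 0.0558 and 0.0643).

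Without the doubtful replicate the late genes and PAP1 kept their calls, with log2 fold changes of 6.24 for DFR, 5.72 for LDOX, 4.98 for F3'H and 3.5 for PAP1, against 17.3% of all genes called higher. These 4 genes were called in all 24 fits that left out 1 replicate. CHS, CHI and MYB111 lost their calls, with log2 fold changes of 0.75, 0.37 and -1.53 and limma adjusted p of 0.167, 0.414 and 0.162. For the early genes the trusted replicate at pH 8.3 held CHS at 388 and CHI at 56.0 CPM, close to the lower bic replicate at 517 and 55.3 CPM.

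In A1(c+) at 48 h, MYB111 was lower under bic in both fits, with 1.01 and 0.144 CPM under bic, 11.2 CPM in the doubtful replicate at pH 8.3 and 2.18 CPM in the trusted one. Its log2 fold change was -3.7 ± 0.89 over 24 replicates (limma adjusted p = 0.0194, against 3.27% of all genes called lower) and -2.52 ± 0.87 over 21 (adjusted p = 0.0419, against 3.68%). It lost its call over 24 without A1(c+) bic 48 h replicate 2 or without A1(c+) pH 8.3 48 h replicate 1, and over 21 in 11 of 18 fits that left out a further replicate and with the T6(c-) pH 5.9 pairs averaged (limma adjusted p = 0.0815). DFR, LDOX and PAP1 were higher under bic only without the doubtful replicate, against 8.03% of all genes called higher. They had log2 fold changes of 5.23, 4.5 and 3.67 (limma adjusted p = 0.000294, 0.000173 and 0.000943), where over 24 replicates they had 2.37, 2.03 and 2.02 and none was called, beside 1.31% of all genes.

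At pH 5.9 for 3 h the group means of the 7 enzyme genes were lower in A1(c+) than in T6(c-), by log2 differences from -0.18 (CHS) to -0.85 (CHI). PAP1 (30.7 against 19.7 CPM) and MYB111 (1.35 against 1.22 CPM) had higher means in A1(c+). None of the 10 genes was called in either fit. Wherever a lack of overlap is given, between 2 against 2 replicates it has an exact permutation p of 0.333 at best. Its share among all genes is not given here, so it is read as a description. Of the 10 genes, 0 had an unadjusted limma p under 0.05 over 24 replicates and 3 over 21, while 2.42% of all genes were called higher in A1(c+) and 2.31% lower over 24, and 3.87% and 6.15% over 21. After 3 h at pH 8.3 they were far apart. DFR held 0.137 and 0.255 CPM in A1(c+) and 32.9 and 31.4 CPM in T6(c-), a log2 difference of -7.43 ± 1.48 (172-fold lower in A1(c+), limma adjusted p = 0.00544). This call held in all 24 fits that left out 1 replicate. Over 24 replicates 5 of the 10 genes were lower in A1(c+), against 9.54% of all genes: DFR, LDOX (-5.66, adjusted p = 0.0101), F3'H (-3.97, adjusted p = 0.0172), CHI (-1.49, adjusted p = 0.0342) and F3H (-1.28, adjusted p = 0.0394). CHI and F3H lost their calls with the T6(c-) pH 5.9 pairs averaged (limma adjusted p = 0.0641 and 0.0712). Of the 24 fits that left out 1 replicate, LDOX was called in 21, F3'H and CHI in 20 and F3H in 16. Over 21 replicates CHS, FLS1 and PAP1 were also lower, which made 8 of 10 against 13.6% of all genes, and FLS1 and PAP1 lost these calls with the pairs averaged or under median-ratio scaling, as did F3H under median-ratio scaling (-0.96). The median over the 10 genes was -1.45, beside -0.31 over all genes. PYK10 and 2 of 5 epidermis and trichome markers were lower in A1(c+) too, with PYK10 at 6.01 to 6.43 against 191 to 192 CPM, and their part was not tested.

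In the other deme comparisons F3'H alone of the 10 genes was called over 24 replicates, at pH 5.9 and under bic for 48 h. At pH 5.9 for 48 h it held 0.985 and 0.818 CPM in A1(c+) and 10.7 and 10.8 CPM in T6(c-) (log2 difference -3.58 ± 1.06, limma adjusted p = 0.0373, 1 of 10 against 5.21% of all genes called lower), a call that was lost with the T6(c-) pH 5.9 pairs averaged (limma adjusted p = 0.22). Under bic for 48 h it held 4.01 and 2.38 CPM in A1(c+) and 77.5 and 38.3 CPM in T6(c-) (-4.14 ± 1.06, limma adjusted p = 0.0153, 1 of 10 against 7.69%). Neither pair of groups overlapped. A count of 1 of 10 lies near these shares of all genes. Of the 24 fits that left out 1 replicate, F3'H was called in 16 at pH 5.9 and in 21 under bic. Without the doubtful replicates DFR (-2.08) and LDOX (-2.52) were also lower in A1(c+) at pH 5.9 for 48 h, 3 of 10 against 9.24% of all genes, and DFR (-3.06), LDOX (-2.84), CHS (-1.21) and PAP1 (-1.15) under bic for 48 h, 5 of 10 against 13.6%. PAP1 lost that call with the T6(c-) pH 5.9 pairs averaged (limma adjusted p = 0.0723), under median-ratio scaling (-0.98) and in part of the fits that left out a further replicate (called in 12 of 18). After 3 h of bic, 0 of 10 differed over 24 replicates (0 at an unadjusted limma p under 0.05, beside 2.92% of all genes called lower), and DFR, LDOX, F3'H and CHI were lower in A1(c+) over 21, 4 of 10 against 11.7%. CHI lost that call with the pairs averaged (limma adjusted p = 0.0557), under median-ratio scaling (-0.94) and under quantile normalization (-0.99). At pH 8.3 for 48 h, 0 of 10 differed over 24 (0 at an unadjusted limma p under 0.05, beside 0.317% called lower) and LDOX alone over 21 (-1.62, limma adjusted p = 0.0405, 1 of 10 against 3.35%), a call that 2 other scalings and the averaged pairs removed.

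Whether the demes responded differently was tested as an interaction. Over 24 replicates none of the 10 genes was called at either time for either treatment. At 3 h 0% of all genes were called for pH 8.3 and for bic, and 3 and 0 of the 10 genes had an unadjusted limma p under 0.05. So did 1357 and 1491 of all 18603 genes. At 48 h 0.108% of all genes were called lower and 0.0269% higher for pH 8.3, and 2.73% lower and 1.42% higher for bic. There 1 and 1 of the 10 genes had an unadjusted limma p under 0.05, as did 2345 and 4389 of all 18603 genes. Without the doubtful replicates the response of A1(c+) to 3 h at pH 8.3 minus that of T6(c-) was -6.81 ± 0.63 on the log2 scale for DFR (limma adjusted p = 0.00048) and -4.96 ± 0.43 for LDOX (adjusted p = 0.000439), and F3'H stood at the threshold (adjusted p = 0.05). This was 3 of 10 against 0.57% of all genes called lower. DFR and LDOX kept these calls under both other scalings and with the T6(c-) pH 5.9 pairs averaged (limma adjusted p = 0.0159 for each), and F3'H lost its own under each. For 3 h of bic, DFR and LDOX were called over 21 replicates (limma adjusted p = 0.0473 and 0.026, 2 of 10 against 0.102%), and both calls were lost under the other scalings and with the pairs averaged. For 48 h of bic, CHS alone was called over 21 (-1.97 ± 0.5, limma adjusted p = 0.015, 1 of 10 against 6.98%), and not with the pairs averaged (limma adjusted p = 0.0758). For 48 h at pH 8.3 the fit over 21 replicates cannot decide the question, because the pH 8.3 group of each deme held a lone replicate.

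Between 3 h and 48 h F3H rose in both demes under every treatment, CHI in 4 of the 6 combinations over 24 replicates and in 6 of 6 over 21, and CHS in 2 and 3 of them. Time under treatment, plant age and the hour of harvest cannot be told apart in this comparison. F3H was higher at 48 h in all 6 combinations of deme and treatment in both fits, with log2 fold changes from 1.77 in T6(c-) at pH 8.3 to 2.81 in A1(c+) at pH 8.3 over 24 replicates. In the T6(c-) control it went from 129.9 and 127 CPM to 579 and 569.9 CPM, a call lost over 24 replicates with the pairs averaged (limma adjusted p = 0.102). Over 24 replicates CHI was called with 1.76 in A1(c+) at pH 5.9, 1.77 at pH 8.3, 1.81 under bic, and 1.88 in T6(c-) under bic. CHS was called in A1(c+) at pH 8.3 (1.57) and T6(c-) under bic (2.09), and MYB111 in A1(c+) at pH 8.3 (2.84), a call lost without the doubtful replicates (limma adjusted p = 0.17). With the pairs averaged, the calls of CHS and MYB111 in A1(c+) at pH 8.3 were lost (limma adjusted p = 0.0744 and 0.0734), and that of CHS held in 12 of 24 fits that left out 1 replicate. Over 21 replicates CHI was also called in T6(c-) at pH 5.9 (1.09, lost with the pairs averaged, limma adjusted p = 0.145) and at pH 8.3 (1.48), CHS in A1(c+) at pH 5.9 (1.1), and FLS1 in A1(c+) at pH 8.3 (2.04, lost with the pairs averaged, limma adjusted p = 0.0562). The share of all genes called higher at 48 h over 24 replicates was 3.38% in A1(c+) at pH 5.9, 5.83% at pH 8.3 and 6.82% under bic, and 2.13%, 1.89% and 11.8% in T6(c-), against 2, 4, 2, 1, 1 and 4 of the 10 genes. Over 21 replicates it was 4.28%, 5.32%, 8.52%, 2.99%, 2.78% and 14% in the same order, against 3, 4, 6, 3, 2 and 9 of the 10 genes.

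The late genes took a different course with time, and none of them was called over 24 replicates with the settings used throughout. The values that follow are over 21 replicates. In A1(c+) at pH 5.9, DFR went from 12.5 and 13.5 to 5.17 and 2.27 CPM and was called lower at 48 h (log2 fold change -1.93, limma adjusted p = 0.00374), as were LDOX (-2.17) and F3'H (-2.34), 3 of 10 against 15.5% of all genes. None of these 4 replicates was in doubt, and the 3 genes were also called lower when the A1(c+) pH 5.9 groups were fitted by themselves. Under bic they were called higher at 48 h in both demes, among 6 of 10 genes in A1(c+) against 8.52% of all genes and 9 of 10 in T6(c-) against 14%, with DFR at 4.4 in A1(c+) and 2.53 in T6(c-), LDOX at 3.56 and 2.35 and F3'H at 2.33 and 2.58. In T6(c-) at pH 8.3 all 3 were called lower (-4.29, -3.93 and -2.37), 3 of 10 against 10.9%. In the T6(c-) control DFR held 20.1 and 19.7 CPM at 3 h and 14.9 and 14.2 CPM at 48 h and was not called. PAP1 was called higher at 48 h in T6(c-) under bic in both fits (3.01, limma adjusted p = 0.00791 over 24). It was called over 21 alone in A1(c+) under bic (1.41) and in T6(c-) at pH 5.9 (1.22), and both calls were lost with the pairs averaged (limma adjusted p = 0.0819 and 0.222).

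Among the regulators, PAP1 showed no drop like that of the late genes in A1(c+) after 3 h at pH 8.3. It held 28 and 17.5 CPM there and 22.2 and 42.1 CPM in its control, while DFR was at 0.137 and 0.255 CPM. These groups of PAP1 overlapped (log2 fold change -0.47), so a smaller fall is not excluded. Against T6(c-) at pH 8.3 for 3 h, at 55.7 and 40.2 CPM, PAP1 was lower in A1(c+) without overlap. That difference was called over 21 replicates alone. PAP1 and PAP2 are close relatives whose reads could be split by the counting, and PAP2 was not in the table. MYB12 was not called in any comparison of treatments or demes, and was called only between 48 h and 3 h in T6(c-) under bic over 21 replicates (limma adjusted p = 0.0479), a call that 12 of 18 further fits and the averaged pairs (limma adjusted p = 0.0792) lost. Its single replicates held 0.116 to 4.71 CPM. MYB111 was highest in the 2 doubtful replicates at 48 h, with 11.2 CPM in that labelled A1(c+) pH 8.3 and 7.9 CPM in that labelled T6(c-) pH 8.3, where the next highest replicate held 4.45 CPM.

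Across the 24 replicates the enzyme genes fell into a pair of groups. As a description, Pearson's r of log2 levels was 0.94 for CHS with FLS1, 0.91 for CHS with CHI, 0.92 for CHI with F3H and 0.8 for CHS with F3H. DFR and LDOX had r = 0.99, and F3'H had r = 0.91 with DFR and 0.94 with LDOX, so that F3'H sided with the late genes. Between the groups r was lower, with 0.48 for CHS with DFR and 0.25 for F3H with LDOX (0.51 and 0.3 without the doubtful replicates). PAP1 had r = 0.6 with DFR and 0.63 with CHS, MYB12 had 0.68 with CHS (0.83 over 21), and MYB111 had -0.08 with DFR and -0.37 with PAP1. The replicates share groups, depth and treatment, so these values say how the genes ran side by side and carry no test.

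**Figure D5:**
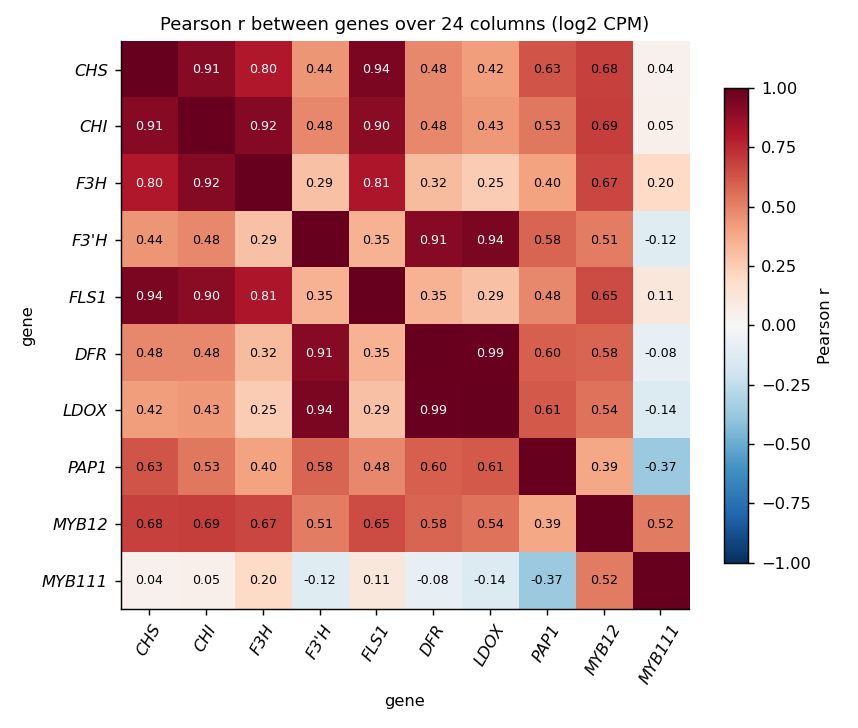
Pearson's r of log2 levels between each pair of the 10 genes over 24 replicates. The early genes with FLS1 and the genes F3'H, DFR and LDOX form a pair of blocks, with r = 0.99 for DFR and LDOX and 0.48 for CHS and DFR.

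Outside the 10 genes, those of the whole table that ran closest to DFR were other anthocyanin genes. In order of r over 24 replicates they were 5MAT, an anthocyanin malonyltransferase (0.988), UGT79B1, which adds a xylose to anthocyanins (0.972), TT8, the bHLH partner of PAP1 (0.965), GSTF12, needed to carry anthocyanins to the vacuole (0.945), and UGT75C1, an anthocyanin glucosyltransferase (0.922). Outside the 10 genes, those closest to CHS were CHIL, a chalcone isomerase-like protein that aids CHS (0.93), DAW1 (0.928), AAE18 (0.916), NET1D (0.908) and ECP63 (0.901). Over 21 replicates r was 0.929 to 0.992 for those named beside DFR and 0.897 to 0.934 for those named beside CHS.

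TT8 came close to silence where DFR did. It held 116 and 139 reads in A1(c+) at pH 5.9 for 3 h and 2 and 0 reads at pH 8.3, against 256 and 218 reads in T6(c-) at pH 8.3. It was called lower at pH 8.3 in A1(c+) (limma adjusted p = 0.0227 over 24 and 0.00017 over 21), and no fold is given because 1 replicate held no read. GSTF12 held 13.2 and 19.9 CPM in A1(c+) at pH 5.9 for 3 h and 1.23 and 1.16 CPM at pH 8.3, and in T6(c-) 18.2 and 17.7 CPM at pH 5.9 for 48 h and 150.1 and 109 CPM under bic. In both comparisons its groups did not overlap.

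The list of 8 genes for anthocyanin decoration and transport ran with the late genes. The genes named from it and from the further lists were called in both fits, and their adjusted p is that over 24 replicates. After 3 h at pH 8.3 in A1(c+), 4 of 8 fell over 24 replicates and 6 over 21, against 1.9% and 6.75% of all genes, with a median log2 fold change of -1.99 beside -0.27 over all genes. Those named by size were 5MAT (-6.66, limma adjusted p = 0.0224), UGT79B1 (-4.78, adjusted p = 0.0336) and GSTF12 (-3.77, adjusted p = 0.0191). After 48 h of bic in T6(c-), 4 of 8 rose over 24 replicates and 8 of 8 over 21, against 13.8% and 16.3% of all genes, with a median of 1.95 beside 0.3, led among those called over 24 by GSTF12 (2.83, adjusted p = 0.0134), UGT75C1 (2.15, adjusted p = 0.0139) and SCPL10 (1.74, adjusted p = 0.00808). In T6(c-) at 48 h, 8 of 8 were called higher under bic than at pH 8.3 over 24 and 7 over 21, against 14.2% and 17.3% of all genes. At pH 8.3 for 3 h, 7 of 8 were lower in A1(c+) than in T6(c-) in both fits, against 9.54% and 13.6%.

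Of 8 genes for the supply of phenylpropanoid precursors, which include the phenylalanine ammonia-lyases that open the pathway, 0 were called in A1(c+) after 3 h at pH 8.3 in either fit, against 1.9% and 6.75% of all genes called lower, with a median of -0.06 beside -0.27 over all genes. After 48 h of bic in T6(c-), 3 of 8 rose in both fits, against 13.8% and 16.3% of all genes, PAL4 (2.55, limma adjusted p = 0.00119), 4CL2 (1.53, adjusted p = 0.000866) and PAL1 (1.5, adjusted p = 0.0148), and 0 fell. Of 6 genes for flavonol decoration, CHIL rose there (2.09, limma adjusted p = 0.026) and 0 were called in A1(c+) at pH 8.3 for 3 h. Of the 5 proanthocyanidin genes only AHA10, a proton pump, was analysed. It fell in T6(c-) after 48 h of bic (-1.97, limma adjusted p = 0.00348), beside 5.14% of all genes called lower over 24 replicates.

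Among 10 activators, of which 9 were analysed, TT8 and HYH (-1.08, limma adjusted p = 0.0354) fell in A1(c+) after 3 h at pH 8.3, and HYH, a bZIP relative of HY5, also fell in T6(c-) after 48 h of bic (-1.54, limma adjusted p = 0.00071), while the late genes there were higher. EGL3, another bHLH partner, was lower in A1(c+) than in T6(c-) at pH 8.3 for 3 h (-2.58, limma adjusted p = 0.0119). Among 10 repressors, MYB3 (1.97, limma adjusted p = 0.000224) and MYB7 (1.81, adjusted p = 8.51e-05) rose in T6(c-) after 48 h of bic, and MYB4 fell in A1(c+) after 48 h of bic (-1.76, adjusted p = 0.006). None of the 10 repressors was called in A1(c+) after 3 h at pH 8.3. Over 24 replicates 1.9% of all genes were called lower there and 0.226% higher. After 48 h of bic 13.8% were called higher and 5.14% lower in T6(c-), and 0.22% lower in A1(c+). Between demes at pH 8.3 for 3 h, 9.54% were called lower in A1(c+).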

How the data were processed

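Leaf RNA was sequenced by the authors as unstranded, paired-end reads of 150 bp. Their methods name Bowtie and TopHat, and the submitters' processing notes name Salmon, DESeq2, DESeq 1.18.0 and the build TAIR10. Which of these made the table is not given in the sources used here. The deposited values are log2 CPM with 0.5 reads added, and 100.0% of low values came out as whole reads within 0.05. Linear values had been allowed for in planning, but the values were already on a log2 scale.

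limma 3.58.1 in R 4.3.3 was fitted with 1 mean per group over 24 columns and a variance trend, two-sided, with Benjamini-Hochberg adjustment within each of 28 comparisons, after a test on simulated data. Alternatives covered scaling, a pseudocount of 1 CPM, a minimum mean of 10 CPM, no trend, only the groups compared, a replicate block and left-out replicates. Averaging the T6(c-) pH 5.9 pairs, and settings that combined 2 choices, were added after seeing the data. All 10 genes were named, with at most 3 genes called in each direction from each further list and the 5 genes most like CHS and DFR. The members and lists were chosen with earlier results of these data known. PAP2, BAN, TT12, TT10 and TT2 were not analysed here.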

Additional observations from a re-analysis of the deposited data

How the results depend on the processing

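Counts of calls are summed over the comparisons of a kind, with 10 genes each, in the order bic against pH 5.9 (2 of 40), pH 8.3 against pH 5.9 (1 of 40), bic against pH 8.3 (8 of 40), demes (7 of 60), difference in response (0 of 40) and 48 h against 3 h (14 of 60). Leaving out the 3 doubtful replicates gave 15, 8, 8, 21, 6 and 33, with median-ratio scaling added 13, 8, 8, 15, 3 and 32, and with quantile normalization added 12, 8, 9, 17, 3 and 34. Averaging the T6(c-) pH 5.9 pairs gave 1, 0, 6, 4, 0 and 11, and both changes together gave 11, 3, 7, 16, 2 and 28. Fitting only the groups compared gave 8, 4, 4, 13, 3 and 18. A pseudocount of 1 CPM gave 4 for bic and 0 for pH 8.3 against pH 5.9, quantile normalization gave 0 for pH 8.3 against pH 5.9, and a minimum of 10 CPM gave 2 for pH 8.3 against pH 5.9, 5 for bic against pH 8.3 and 4 for demes. Median-ratio scaling and dropping the trend moved none of these counts by more than 1.5 times. Leaving out single replicates, from all 24 or from the 21, gave 1 to 16, 0 to 11, 5 to 11, 2 to 30, 0 to 12 and 11 to 41. The replicate block gave 2, 1, 8, 7, 0 and 13, but the numbers did not pair the samples (66 pairs of groups, correlations of deviations from -0.42 to 0.44 with a median of -0.01, 11 of them over 0.1).

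Some log2 fold changes turned. In A1(c+) at pH 8.3 against pH 5.9 for 48 h, DFR was 0.3 with the pseudocount, and LDOX was -2.13 without the doubtful replicates, and then -2.06 with median-ratio scaling, -1.91 with quantile normalization and -2.13 with averaged pairs added. LDOX between demes at pH 8.3 for 48 h was -1.62, -1.51, -1.22 and -1.62 in these settings. F3'H in A1(c+) bic at 48 h against 3 h was -0.05, -0.04 and -0.26 with median-ratio scaling, quantile normalization and the pseudocount. With single replicates left out, ranges in A1(c+) bic against pH 5.9 at 3 h were -3.3 to 1.64 (F3'H), -4.27 to 0.85 (DFR) and -3.43 to 1.36 (LDOX), and in A1(c+) pH 8.3 against pH 5.9 at 48 h -3.71 to 2.6 (DFR) and -2.42 to 2.81 (LDOX). In bic against pH 8.3 at 48 h they were -0.49 to 5.35 (DFR) and -0.44 to 4.63 (LDOX) in A1(c+) and -0.02 to 2.33 (CHI) in T6(c-). Between demes they were -4.63 to 0.64 (F3'H), -5.61 to 0.14 (DFR) and -4.57 to 0.66 (LDOX) under bic at 3 h and -2.24 to 2.7 (LDOX) at pH 8.3 for 48 h, and for the difference in response to 3 h of bic -5 to 0.75 (DFR) and -3.87 to 1.36 (LDOX). Over time they were -2.19 to 2.71 (F3'H), -0.67 to 4.53 (DFR) and -1.16 to 3.68 (LDOX) in A1(c+) bic and -0.48 to 1.52 (CHI) in T6(c-) pH 8.3. The turns under bic at 3 h came without A1(c+) bic 3 h replicate 1, which left the doubtful replicate alone in its group, and those at pH 8.3 for 48 h in most cases without a replicate of that treatment. The cause of the changes was not tested. With 2 replicates a group, the shared spread decides the calls, and 3 groups are left with a lone replicate once the doubtful ones are out.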
